A study of Mus musculus with 8 samples.

Results

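The pericyte genes Rgs5, Abcc9, Kcnj8, Pdgfrb, Cspg4, Des, Higd1b and Mcam were followed in sorted mammary tumor cells of 2 Dll1 reporter lines. They are 8 of the 53697 genes in the deposited table, and all 8 were among the 18322 genes kept by a filter on low values, Higd1b only through the 4 libraries of mCh mice. Rgs5, Abcc9 and Kcnj8 were chosen for their values in these libraries, because they were lower in Dll1+ than in Dll1- cells of mCh mice and not of GFP mice. Their values are therefore a description, given without a test. The other 5 genes were listed beside them as markers of the same cell type when results of these libraries were already known, so their p-values measure only the spread between libraries and are no independent evidence.

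RNA was sequenced from 2 PyMT-Dll1GFP mice (GFP mice) and 2 PyMT-Dll1mCh mice (mCh mice), with a Dll1+ and a Dll1- library from each, which makes 2 libraries per group and 8 in all. All 4 mice carried MMTV-PyMT, an oncogene driven in mammary epithelium by a viral promoter, on a C57BL/6 background, and their ages are not given in the sources used here. GFP mice carried the Dll1 GFP-IRES-Cre-ERT2 knock-in and mCh mice a BAC transgene with mCherry, so the construct, the fluorescent protein and the mice themselves cannot be told apart. Tumors were digested with collagenase and hyaluronidase, cells with CD45 (blood cells), CD31 (endothelium) or ter119 (erythroid cells) were removed, and the rest were split by reporter fluorescence. No pericyte marker entered the sort, which was meant to enrich epithelial tumor cells.

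The libraries held 27301396 to 123907626 estimated counts (median 38191068), and the mCh Dll1- library of mouse 1 was the deepest. Levels are given as CPM (counts scaled to the same total in each library) after TMM normalization, and 3 counts, the floor below which a gene is not called detected, equal 0.024 to 0.105 CPM depending on the library. Dll1, the Notch ligand used for the sort, was higher in the Dll1+ library of every mouse, from 7.61 to 87.5 CPM in GFP mouse 1, from 13.7 to 138 in GFP mouse 2, from 34.7 to 203 in mCh mouse 1 and from 50.3 to 250 in mCh mouse 2. The Dll1- cells of mCh mice thus held more Dll1 RNA than those of GFP mice (log2 difference 1.99 ± 0.36, adjusted p = 0.00724, edgeR). The luminal keratin gene Krt8 lay between 1900 and 3630 CPM in all 8 libraries and the epithelial adhesion gene Epcam between 899 and 1240 CPM.

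Pericytes are mural cells that sit on capillaries inside the basement membrane they share with the endothelium. Endothelial cells recruit them with PDGF-B, which binds the receptor encoded by Pdgfrb on the pericyte, and pericytes in turn stabilize vessels and help to set capillary flow. Vessels of mammary tumors carry pericytes too, often loosely attached. None of the 8 genes is confined to pericytes: smooth muscle shares several, fibroblasts can carry Pdgfrb, and Mcam is also found on endothelium and on some tumor cells.

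The 250 bases upstream of the transcription start are shown for the genes chosen by their values. These were chosen for falling in Dll1+ cells of mCh mice, and Kcnj8 and Abcc9 lie side by side. The sequences come from RefSeq (GRCm38.p6), run 5′ to 3′ on the strand of the gene, and capitals mark the match to TGGGAA, the core letters of the site bound by the Notch effector RBPJ. For Abcc9 only the 209 bases upstream of the GENCODE gene start are printed.
Rgs5 (chr1:169655251-169655500, plus strand): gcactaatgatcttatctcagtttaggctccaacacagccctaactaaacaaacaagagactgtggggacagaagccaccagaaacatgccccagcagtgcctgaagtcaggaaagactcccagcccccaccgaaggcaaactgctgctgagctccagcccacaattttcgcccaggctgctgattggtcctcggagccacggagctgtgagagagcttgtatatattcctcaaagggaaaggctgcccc
Kcnj8 (chr6:142571615-142571864, minus strand): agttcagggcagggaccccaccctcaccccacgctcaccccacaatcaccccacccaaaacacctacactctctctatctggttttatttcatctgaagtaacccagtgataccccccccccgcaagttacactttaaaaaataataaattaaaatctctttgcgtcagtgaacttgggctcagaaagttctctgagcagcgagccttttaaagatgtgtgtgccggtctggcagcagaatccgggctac
Abcc9 (chr6:142702316-142702524, minus strand): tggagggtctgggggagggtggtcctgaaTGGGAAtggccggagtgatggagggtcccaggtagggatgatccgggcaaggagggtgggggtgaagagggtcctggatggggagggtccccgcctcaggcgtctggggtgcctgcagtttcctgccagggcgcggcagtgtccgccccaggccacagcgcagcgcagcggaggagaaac

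These stretches differed in base composition, with 53.6% GC in Rgs5, 49.2% in Kcnj8 and 68.4% in Abcc9. The letters TGGGAA, the CArG box (the site of serum response factor) and the TATA box, spelled TATAAA, were searched on both strands of the 250-base windows of the 6 members with an entry, namely Rgs5, Abcc9, Kcnj8, Cspg4, Des and Mcam. A TATA box match may lie within a CArG box. The TGGGAA in Abcc9, 221 bases before its RefSeq start, was the only match. Among 32851 promoter windows of the same length, 21.6% held TGGGAA, 12.4% a TATA box and 1.47% a CArG box. A match is only a run of letters and was not tested as a site.

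Rgs5 encodes a regulator of G-protein signaling that shortens the response to vasoactive hormones, and it is among the most widely used pericyte markers. It lies on chromosome 1 at 169655501 to 169695813 of GRCm38. Its level was 250 CPM in the Dll1- and 34.5 CPM in the Dll1+ library of mCh mouse 1, and 294 and 35.6 CPM in those of mCh mouse 2. In GFP mouse 1 it was 12.0 and 11.1 CPM, and in GFP mouse 2 it was 7.49 and 10 CPM. The Dll1- libraries of mCh mice stood far above the other 6, and the Dll1+ libraries of mCh mice still lay above all 4 GFP libraries. The Dll1+ library was 7.24-fold lower in mCh mouse 1 and 8.27-fold lower in mCh mouse 2. The fitted log2 difference between Dll1+ and Dll1- cells was -2.95 ± 0.13 (SE) in mCh mice and 0.15 ± 0.14 in GFP mice, where the mice pointed in opposite directions (-0.11 and 0.42). As these are bulk libraries, fewer pericytes, less RNA per pericyte and RNA from other cells cannot be told apart, here and for every gene below.

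**Figure D1:**
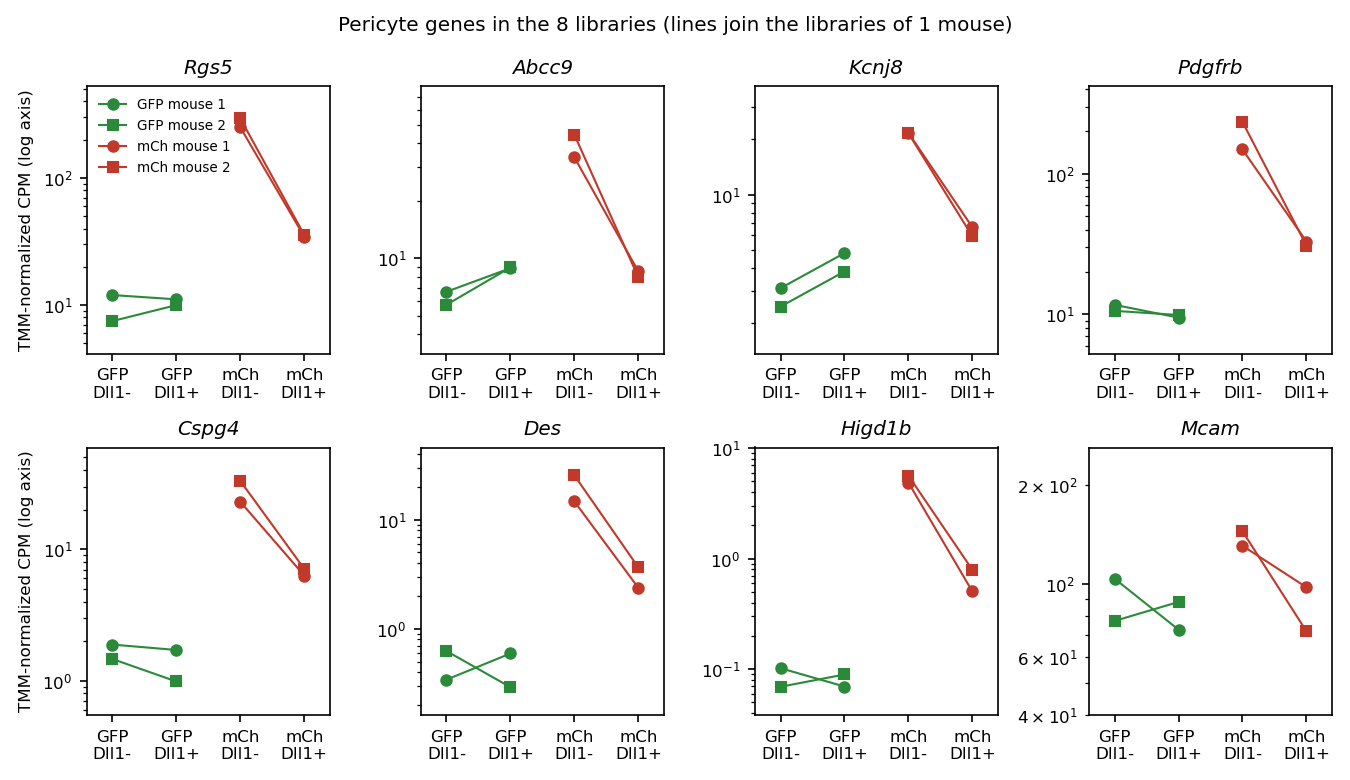
Level of each of the 8 pericyte genes in the 8 libraries, in TMM-normalized CPM on a log axis, with a line joining the Dll1- and Dll1+ library of each mouse (green, GFP mice; red, mCh mice; circle, mouse 1; square, mouse 2). The red lines fall steeply in every panel but Mcam, for Rgs5 from 250 and 294 CPM to 34.5 and 35.6 CPM, while the green lines rise (Abcc9, Kcnj8), cross (Pdgfrb, Des, Higd1b, Mcam) or change less.

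Kcnj8 and Abcc9 encode the partners of the KATP channel of vascular mural cells, a potassium channel that opens when cellular ATP is low and relaxes the vessel. Kcnj8 is the pore (Kir6.1), Abcc9 the sulfonylurea receptor SUR2 that regulates it. Both lie on the minus strand of chromosome 6 of GRCm38, Kcnj8 at 142564837 to 142571614 and Abcc9 at 142587862 to 142702315, with 16.2 kb and 0 annotated genes between them. Abcc9 was at 33.8 and 44.4 CPM in the Dll1- libraries of mCh mice 1 and 2 and at 8.55 and 7.97 CPM in their Dll1+ libraries. In GFP mice it was at 6.69 and 5.72 CPM in Dll1- cells and at 8.89 and 8.97 CPM in Dll1+ cells. The mCh Dll1+ libraries therefore fell within the GFP range, and only the mCh Dll1- libraries stood apart.

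Kcnj8 gave the same picture at lower levels. It was at 21.7 and 21.6 CPM in Dll1- cells and at 6.65 and 5.94 CPM in Dll1+ cells of mCh mice 1 and 2, against 3.10 and 2.46 CPM in Dll1- and 4.81 and 3.82 CPM in Dll1+ cells of GFP mice. Here the mCh Dll1+ libraries lay just above the highest GFP library. Abcc9 was 3.95-fold and 5.57-fold lower in the Dll1+ library of mCh mice 1 and 2, and Kcnj8 3.25-fold and 3.63-fold lower. In both GFP mice the direction was the other way, with Abcc9 1.33-fold and 1.57-fold and Kcnj8 1.55-fold and 1.55-fold higher in Dll1+ cells. The fitted log2 differences were -2.23 ± 0.16 (SE) in mCh and 0.53 ± 0.16 in GFP mice for Abcc9, and -1.78 ± 0.14 and 0.63 ± 0.16 for Kcnj8. The antisense gene 5330439B14Rik overlaps Abcc9 and did not exceed 0.008 CPM in any library.

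The nearest tested genes around this pair differed little between Dll1+ and Dll1- cells. Golt1b and Ldhb on the Kcnj8 side and Cmas and C2cd5 on the Abcc9 side, 54.4 to 309 kb away, had log2 differences between Dll1+ and Dll1- cells of mCh mice of -0.25, 0.16, -0.14 and 0.06, and none passed the test (adjusted p from 0.11 to 0.747, edgeR quasi-likelihood test). Between the lines, Golt1b was higher in mCh than in GFP mice, by 0.61 ± 0.16 in Dll1- and 0.68 ± 0.16 in Dll1+ cells (adjusted p = 0.0224 and 0.0198, edgeR). C2cd5 was lower (-0.72 ± 0.13 and -0.86 ± 0.13, adjusted p = 0.00663 and 0.00607), and Ldhb and Cmas did not pass. Over all tested genes 36.6% and 30.6% were called in these comparisons, in either direction. The other KATP subunits, which serve mainly pancreas, heart and brain, were low, at 1.12 CPM or less in every library. Only Abcc8 in Dll1+ cells, at 0.0447 to 0.0916 CPM, was near the detection floor. The pore gene Kcnj11 had 50 counts over both mCh Dll1- libraries and 65 over both Dll1+ libraries, and its log2 difference of 0.57 ± 0.39 (SE) did not pass (adjusted p = 0.373). Abcc8, the sulfonylurea receptor SUR1, fell from 76 counts over both Dll1- libraries to 9 over both Dll1+ libraries of mCh mice (adjusted p = 0.0374, edgeR) and from 42 to 4 in GFP mice (adjusted p = 0.038). Abcc8 thus had fewer counts in Dll1+ cells of both lines, whereas DESeq2 called 0 of these 2 genes in either line. Abcc8 had passed the filter on low values only through the Dll1- libraries, where it is high (0.336 to 1.12 CPM). Its edgeR calls were therefore favoured by the filter and support nothing.

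Pdgfrb encodes the PDGF receptor beta, the receptor through which pericytes are recruited. It was at 149 and 234 CPM in the Dll1- libraries of mCh mice 1 and 2, at 33.0 and 30.9 CPM in their Dll1+ libraries, and between 9.49 and 11.7 CPM in the 4 GFP libraries. The mCh Dll1- libraries were highest, the mCh Dll1+ libraries next, and neither group overlapped the GFP libraries. Pdgfrb was lower in Dll1+ cells by 4.51-fold in mCh mouse 1 and 7.57-fold in mCh mouse 2, with a fitted log2 difference of -2.54 ± 0.20 (SE, adjusted p = 0.00877, edgeR quasi-likelihood test with Benjamini-Hochberg adjustment over 18322 genes). In GFP mice the log2 difference was -0.20 ± 0.21 (adjusted p = 0.631). The difference between these effects was -2.35 ± 0.29 and did not pass the threshold of 0.05 (adjusted p = 0.0864, edgeR). The adjusted p was 0.00133 without mCh mouse 1 and 0.0294 without mCh mouse 2, fits in which 1 mouse stands for the mCh line and is assumed to vary like the GFP mice, and 0 genes passed without GFP mouse 1 or GFP mouse 2 (2124 and 1808 at an unadjusted p under 0.05).

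Cspg4 encodes the proteoglycan NG2, a pericyte surface antigen that is also found on oligodendrocyte precursors. Its level was 23.0 and 33.1 CPM in mCh Dll1-, 6.30 and 7.09 CPM in mCh Dll1+ and between 0.984 and 1.88 CPM in GFP libraries. The libraries kept the order of those of Pdgfrb, without overlap between mCh and GFP mice. Dll1+ cells of mCh mice had 3.64-fold and 4.67-fold less than Dll1- cells (log2 difference -2.04 ± 0.17, adjusted p = 0.00705, edgeR), and in GFP mice the log2 difference was -0.34 ± 0.21 (adjusted p = 0.365). The difference between the lines was -1.70 ± 0.27 (adjusted p = 0.0879, edgeR). Without mCh mouse 1 the adjusted p was 0.0333 (edgeR), under the same assumption.

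Des encodes desmin, the intermediate filament of muscle and of many pericytes. In GFP mice it was barely present, with 10 to 18 counts per library or 0.291 to 0.624 CPM. In mCh mice it reached 14.7 and 25.5 CPM in Dll1- cells and 2.37 and 3.65 CPM in Dll1+ cells, a 6.20-fold and a 6.97-fold lower level (log2 difference -2.72 ± 0.30, adjusted p = 0.0106, edgeR). Without mCh mouse 2 this adjusted p was 0.0611. The antisense gene Gm15179 overlaps Des and had 0 CPM in every library.

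Higd1b encodes a small membrane protein of the HIG1 domain family that marks pericytes in many single-cell atlases. It had 2 to 4 counts in each GFP library, at or near the floor, so no fold was computed between Dll1+ and Dll1- cells there. In mCh mice it had 607 and 170 counts in Dll1- cells (4.86 and 5.61 CPM) against 33 and 44 in Dll1+ cells (0.504 and 0.792 CPM), 9.65-fold and 7.09-fold lower (log2 difference -3.04 ± 0.29, adjusted p = 0.00757, edgeR). Its relatives Higd1a and Higd2a, which act in mitochondria, had log2 differences of -0.05 and 0.09 in mCh mice and did not pass (adjusted p = 0.801 and 0.535). Between the lines both were higher in mCh than in GFP Dll1- cells, by 0.85 ± 0.12 and 0.39 ± 0.13 (adjusted p = 0.00327 and 0.0498, edgeR). In Dll1+ cells the excess was 0.99 ± 0.12 and 0.41 ± 0.13 (0.00422 and 0.0501). Over all tested genes 18.7% and 15.2% were called higher in these comparisons.

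Mcam, the adhesion molecule CD146, departed from the others. It was abundant everywhere, at 104 and 77.3 CPM in GFP Dll1-, 72.7 and 88.3 CPM in GFP Dll1+, 131 and 145 CPM in mCh Dll1-, and 97.9 and 71.9 CPM in mCh Dll1+ libraries of mice 1 and 2. Only the mCh Dll1- libraries lay above the rest, and by a small margin. Dll1+ cells were lower by 1.34-fold in mCh mouse 1 and 2.02-fold in mCh mouse 2, a log2 difference of -0.72 ± 0.23 that did not pass (adjusted p = 0.129, edgeR; 0.00534 with DESeq2 and 0.00621 without the filter on low counts). The GFP log2 difference was -0.16 ± 0.23 (adjusted p = 0.735). The antisense gene Gm10687 overlaps Mcam and reached 2.76 CPM at most.

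**Figure D2:**
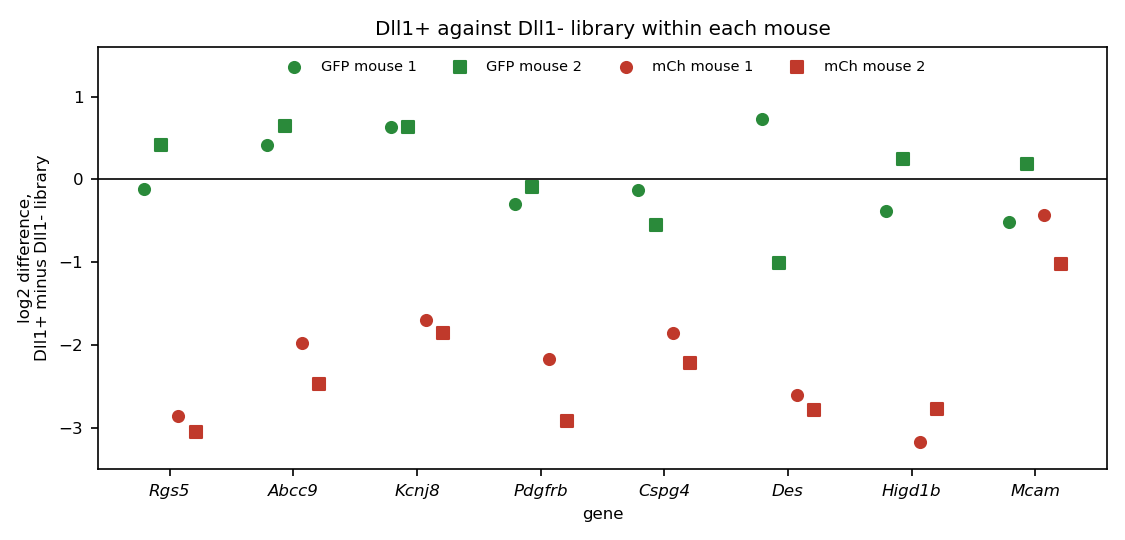
Difference between the Dll1+ and the Dll1- library of each mouse for the 8 pericyte genes, on the log2 CPM scale (a prior count of 2 was added); points below 0 are lower in Dll1+ cells. The points of mCh mice lie below 0 for all 8 genes, at -2.86 and -3.05 for Rgs5 and at -0.43 and -1.02 for Mcam, while those of GFP mice lie on both sides of 0.

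Over the 8 genes, the median log2 difference between Dll1+ and Dll1- cells was -2.39 in mCh mice, against 0.02 over all genes tested. In mCh mice 7 of the 8 were called lower, where 6.25% of all tested genes were, but this contrast chose the genes and the count is printed as a description. The uncalled gene was Mcam. In GFP mice 0 of the 8 were called by edgeR, where 9.13% of all genes were called in either direction, and of the 5 not chosen by value 0 had an unadjusted p under 0.05 and 0 were called by DESeq2. The 8 genes divided there, with 5 log2 differences below 0, 3 above and a median of -0.11, and Kcnj8 and Abcc9 had the largest positive values. The test of the difference between the lines called 13 genes, 0.071% of those tested, and 0 of the 5 genes not chosen by value. Of these 5, 4 had an unadjusted p under 0.05 with edgeR, and Pdgfrb, Cspg4 and Des were called with DESeq2 (adjusted p from 1.32e-12 to 0.00255). With the mCh libraries fitted alone, Pdgfrb, Cspg4, Des and Higd1b kept log2 differences of -2.56, -2.06, -2.73 and -3.06 but missed the threshold (adjusted p from 0.0591 to 0.0618, edgeR). So did every other gene of the table in that fit, in which 5512 had an unadjusted p under 0.05.

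Comparing the lines within each Dll1 state showed how far apart the levels lay. In Dll1- cells, mCh libraries exceeded GFP libraries by 4.80 ± 0.24 (log2, SE) for Rgs5, 2.65 ± 0.18 for Abcc9 and 2.96 ± 0.21 for Kcnj8, all given as a description. Pdgfrb was higher by 4.10 ± 0.23 (adjusted p = 0.000792, edgeR), Cspg4 by 4.07 ± 0.33 (0.00106) and Des by 5.37 ± 0.53 (0.00156). For Higd1b 777 counts over the mCh Dll1- libraries stood against 5 over the GFP Dll1- libraries, a depth-corrected ratio of 58.3 with an exact 95% interval of 24.9 to 180 that covers counting error only. Mcam was higher by 0.61 ± 0.20 (adjusted p = 0.0537, edgeR; 0.0212 with DESeq2). Pdgfrb, Cspg4, Des and Higd1b were called higher, where 18.7% of all tested genes were. Higd1b had passed the filter only through the mCh libraries, where it is high, so its call was favoured by the filter and supports nothing.

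Dll1+ cells of the lines were closer. The log2 excess of mCh over GFP libraries was 1.73 ± 0.21 for Rgs5, 0.55 ± 0.19 for Kcnj8 and -0.11 ± 0.17 for Abcc9, again without a test. It was 1.72 ± 0.21 for Pdgfrb (adjusted p = 0.00422, edgeR), 2.33 ± 0.32 for Cspg4 (0.00525) and 2.81 ± 0.50 for Des (0.0097). Higd1b had 77 counts over the mCh and 6 over the GFP Dll1+ libraries, a ratio of 7.78 (3.41 to 21.8), and Mcam differed by 0.08 ± 0.20 (adjusted p = 0.794). Pdgfrb, Cspg4, Des and Higd1b were again called higher, beside 15.2% of all genes, and the same limit holds for Higd1b. With either GFP mouse left out, 0 genes in the whole table passed in Dll1- or Dll1+ cells (edgeR; 4387 to 5529 had an unadjusted p under 0.05), and the adjusted p of Pdgfrb, Cspg4, Des and Higd1b was 0.0683 to 0.0714 in Dll1- and 0.116 to 0.144 in Dll1+ cells.

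**Figure D3:**
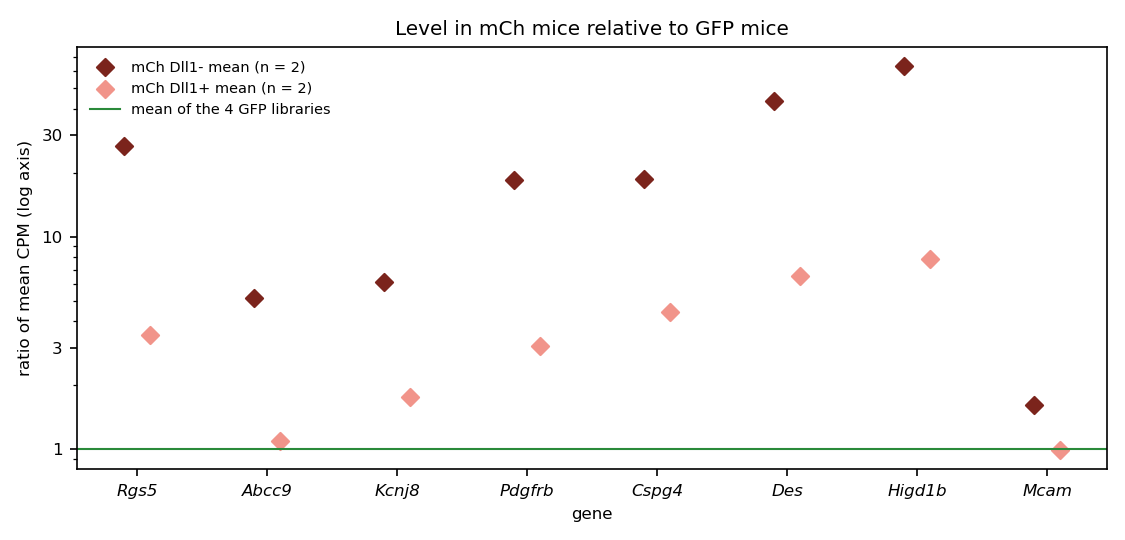
Mean CPM of the 2 mCh Dll1- libraries (dark) and the 2 mCh Dll1+ libraries (light) of each pericyte gene divided by the mean of the 4 GFP libraries (green line at 1), on a log axis. The ratio in mCh Dll1- cells runs from 1.62 for Mcam to 63.3 for Higd1b, and in mCh Dll1+ cells from 0.993 for Mcam and 1.09 for Abcc9 to 7.83 for Higd1b.

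Set against the mean of the 4 GFP libraries, mCh Dll1- cells held 26.8 times as much Rgs5, 18.4 times as much Pdgfrb, 18.6 times as much Cspg4 and 43.4 times as much Des, but 5.16 times as much Abcc9 and 6.09 times as much Kcnj8. Mcam and the KATP pair thus had the smallest ratios of the 8. Per kilobase of exon, the order of the levels in mCh Dll1- cells began with Rgs5 at 59.8 ± 6.89 CPM per kb (SD, n = 2), followed by Mcam at 41.3 ± 2.94 and Pdgfrb at 34.9 ± 10.9, which did not differ beyond their spread. Kcnj8 followed at 8.48 ± 0.0236, then Higd1b at 6.18 ± 0.63, Des at 5.34 ± 2.03 and Abcc9 at 4.66 ± 0.895, neighbours within their spread, and Cspg4 was last at 2.35 ± 0.601.

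The order was another in GFP Dll1- cells, per kilobase of exon. Mcam led at 27 ± 5.59 CPM per kb (SD, n = 2), and Rgs5 (2.14 ± 0.703) and Pdgfrb (2.03 ± 0.146) were within each other's spread. Kcnj8 at 1.09 ± 0.179 and Abcc9 at 0.741 ± 0.0817 came next, and Cspg4 (0.14 ± 0.0249), Des (0.129 ± 0.0533) and Higd1b (0.101 ± 0.0276) were lowest and not distinguishable. In Dll1+ cells Mcam was at 24.0 ± 3.30 in GFP and 25.3 ± 5.49 in mCh mice, Rgs5 at 2.32 ± 0.166 and 7.71 ± 0.17, and Abcc9 at 1.07 ± 0.00647 and 0.986 ± 0.0487 CPM per kb. Exon lengths were the union over annotated transcripts, from 847 bases for Higd1b to 11931 for Cspg4.

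Other genes listed as pericyte markers fell as well in Dll1+ cells of mCh mice. Of 22 tested, 16 fell in Dll1+ cells, 0 rose and the median log2 difference was -2.27, beside a median of 0.02 and 6.25% called lower over all genes. Among them were Enpep, an angiotensin-cleaving aminopeptidase (9.91 and 20.2 CPM in Dll1- against 1.07 and 1.06 CPM in Dll1+ libraries, log2 difference -3.72 ± 0.31, adjusted p = 0.00705, edgeR), Vtn, the matrix protein vitronectin (-3.25 ± 0.27, 0.00705), and Heyl, a Notch target gene of mural cells (-2.18 ± 0.20, 0.00708). Gja4, a gap junction protein, fell by 2.28 on the log2 scale, and Aoc3, an amine oxidase of vessel walls, Cygb, a globin, and Cox4i2, a subunit of cytochrome oxidase, had log2 differences of -2.68, -2.82 and -2.89. The other genes that fell were the guanylate cyclase subunits Gucy1a1 and Gucy1b1 (-2.27 and -1.25), Ndufa4l2 (-2.43), Pla1a (-2.80), Art3 (-2.62), Rgs4 (-2.49), and the transcription factors Ebf1 and Tbx18 (-2.28 and -2.19), all with an adjusted p of 0.00705 to 0.036 (edgeR), and Ednra. The count was 17 with DESeq2, 10 without the mouse as a block and 0 with the mCh libraries fitted alone.

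In GFP mice 1 of the same 22 genes rose (edgeR and DESeq2, while 4 had an unadjusted p under 0.05), 0 fell and the median was 0.21. Over all tested genes edgeR called 4.29% higher and 4.84% lower there. The gene that rose was Ednra, the endothelin receptor A, and it went opposite ways in the lines. It was 9.55 and 10.2 CPM in GFP Dll1- and 24.6 and 20.3 CPM in GFP Dll1+ libraries (log2 difference 1.18 ± 0.16, adjusted p = 0.0115, edgeR), but 25.6 and 39.4 CPM in mCh Dll1- and 16.2 and 17.7 CPM in mCh Dll1+ libraries (-0.91 ± 0.15, adjusted p = 0.0214). The test of the difference gave -2.09 ± 0.22 and an adjusted p of 0.0538. Anpep and Steap4, the most abundant genes of the list, did not move with the rest, with log2 differences of 0.02 ± 0.10 (adjusted p = 0.927) and 0.10 ± 0.18 (0.761) in mCh mice. In Dll1- cells 19 of the 22 were called higher in mCh than in GFP mice, with a median of 4.06, beside 18.7% of all tested genes. In Dll1+ cells 12 were called higher and 1, Steap4, lower, beside 15.2% and 15.4% of all tested genes. The limit given above for fits with a GFP mouse left out holds here too.

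The other genes of the PDGF pathway gave mixed results. Of these 6, 2 rose and 0 fell in Dll1+ cells of mCh mice by edgeR, while 2 were higher and 1 lower both at an unadjusted p under 0.05 and with DESeq2. Over all tested genes edgeR called 5.51% higher and 6.25% lower. Pdgfb, the ligand that recruits pericytes, rose from 21.9 to 38.8 CPM in mCh mouse 1 and from 57.1 to 86 CPM in mCh mouse 2 (log2 difference 0.71 ± 0.12, adjusted p = 0.0192, edgeR), and fell from 30.3 to 23.7 and from 30.2 to 18.4 CPM in GFP mice 1 and 2 (-0.54 ± 0.12, adjusted p = 0.046). The difference between the lines was 1.24 ± 0.17 and did not pass (adjusted p = 0.0736). Pdgfc rose by 0.64 ± 0.12 in mCh mice (0.0277). Pdgfra, the receptor of fibroblasts, had 50 and 154 CPM in mCh Dll1- and 22.1 and 23.2 CPM in mCh Dll1+ libraries, lower in Dll1+ cells by 2.26-fold and 6.64-fold, with a log2 difference of -1.95 ± 0.43 that had the sign of Pdgfrb but missed the threshold (adjusted p = 0.0777, edgeR). In Dll1- cells Pdgfra was higher in mCh than in GFP mice by 2.89 ± 0.48 (adjusted p = 0.0059).

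Within the RGS family Rgs5 was not alone. Of 12 other members tested, 5 fell and 1 rose in Dll1+ cells of mCh mice, with a median log2 difference of -0.37. Over all tested genes 6.25% were called lower and 5.51% higher. Rgs4, which is also a mural gene, fell by 2.49 ± 0.18 (adjusted p = 0.00705, edgeR) and Rgs16 by 1.83 ± 0.14 (0.00705), while Rgs1, a leukocyte gene, fell by 0.96 ± 0.13 (0.0118) and Rgs10 by 0.96 ± 0.23 (0.0489). Rgs3 fell in both lines, by 0.59 ± 0.13 in mCh and by 0.62 ± 0.13 in GFP mice (both adjusted p = 0.0375), and Rgs11 rose in mCh mice by 0.76 ± 0.08 (0.00915). Rgs2, abundant in all libraries, had a log2 difference of 0.39 ± 0.10 (0.0591).

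Contractile genes of smooth muscle cells, close relatives of pericytes, were higher in mCh than in GFP mice. In Dll1- and in Dll1+ cells 8 of 11 were called higher (edgeR, medians 2.58 and 2.64), beside 18.7% and 15.2% of all tested genes. Between Dll1+ and Dll1- cells they differed between the mCh mice. The median log2 difference was 0.87 in mouse 1, where 1 of 11 was lower in Dll1+ cells, and -0.19 in mouse 2, where 6 of 11 were. Of the 11 tested, 2 rose and 0 fell in Dll1+ cells of mCh mice, namely Cnn1 (calponin, log2 difference 1.57 ± 0.19, adjusted p = 0.0109, edgeR) and Tpm2 (tropomyosin, 1.06 ± 0.10, 0.00757), and Tpm2 rose in GFP mice as well (0.91 ± 0.11, 0.00754). Myoepithelial cells also make both. Of 8 basal and myoepithelial genes 6 rose in Dll1+ cells of mCh mice, Krt5 by 3.19 ± 0.19 (0.00705) and Krt14 by 2.22 ± 0.31 (0.0308). That list shares Cnn1 and Myh11 with the contractile list, and Cnn1 is among those that rose. The part of myoepithelial cells in the contractile values was not tested. The intermediate filament list gave 0 calls among 4 genes besides Des with edgeR (1 at an unadjusted p under 0.05 and 1 with DESeq2), with a median of -0.47. Of 17 genes of signaling between vessel and pericyte, 8 fell and 1 rose in Dll1+ cells of mCh mice, with a median of -0.91. Among these 17, Ednra also stands in the pericyte list, and Tek, Tie1, Eng and Cdh5 in the endothelial list, so the counts overlap. These counts for Dll1+ cells of mCh mice stand beside 6.25% of all tested genes called lower and 5.51% called higher.

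Markers of other stromal and blood cells moved in the same direction as the pericyte genes in mCh mice, including cells that the sort was meant to remove. Of 15 fibroblast genes 6 were called lower in Dll1+ cells of mCh mice and all 15 had a negative log2 difference (median -2.20). For 17 endothelial genes these counts were 8 and all 17 (median -1.36). For 7 immune genes they were 6 and all 7 (median -1.20), and for 5 erythroid genes 4 and all 5 (median -1.39). Over all tested genes 6.25% were called lower, with a median of 0.02. In GFP mice edgeR called 0 fibroblast, endothelial or immune genes (0, 1 and 1 at an unadjusted p under 0.05, and 0, 0 and 1 with DESeq2) and 1 erythroid gene, with medians of -0.12, 0.09, 0.13 and -0.22. Over all tested genes 9.13% were called there in either direction. The counts for mCh mice turned on single mice: the endothelial count was 1 without GFP mouse 1 or GFP mouse 2, 15 without mCh mouse 1 and 5 without mCh mouse 2, and the fibroblast count was 15 without mCh mouse 1, 13 without mCh mouse 2 and 3 without GFP mouse 2.

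Summed over each list, fibroblast genes reached 9250 and 26600 CPM in mCh Dll1- libraries of mice 1 and 2, 4040 and 4400 CPM in mCh Dll1+ libraries and 1380 to 1640 CPM in GFP libraries. Endothelial genes summed to 389 and 880 CPM, 221 and 226 CPM, and 107 to 117 CPM in the same order. Immune genes gave 380 and 403 CPM, 170 and 182 CPM, and 62.3 to 86.2 CPM, and erythroid genes 181 and 87.4 CPM, 68.2 and 34.8 CPM, and 6.03 to 15 CPM. The defining markers were detected rather than absent, with Pecam1 (CD31) at 42.6 and 98.2 CPM in mCh Dll1- and 13.7 to 14.3 CPM in GFP libraries and Ptprc (CD45) at 10.4 and 12.7 CPM against 2.88 to 4.39 CPM. Luminal genes summed to 7820 to 11700 CPM over all 8 libraries, and 1 of 10 was called in mCh mice, beside 11.8% of all tested genes. The part of these cells in the differences of the 8 genes was not tested. In Dll1- cells all 15 fibroblast and all 17 endothelial genes were called higher in mCh than in GFP mice (edgeR), beside 18.7% of all tested genes. The limit given above for fits with a GFP mouse left out applies to these calls.

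The size of the fall differed between lists and mice. The median log2 difference of the 8 genes was -2.07 in mCh mouse 1 and -2.62 in mCh mouse 2, and that of the other pericyte list -2.15 and -2.41. Fibroblast genes had medians of -1.33 and -2.82 and endothelial genes of -0.77 and -1.97, more unequal between the mice than the pericyte lists. Immune genes had -1.21 and -1.22 and erythroid genes -1.42 and -1.32. In GFP mice 1 and 2 the 8 genes had medians of -0.12 and 0.22.

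**Figure D4:**
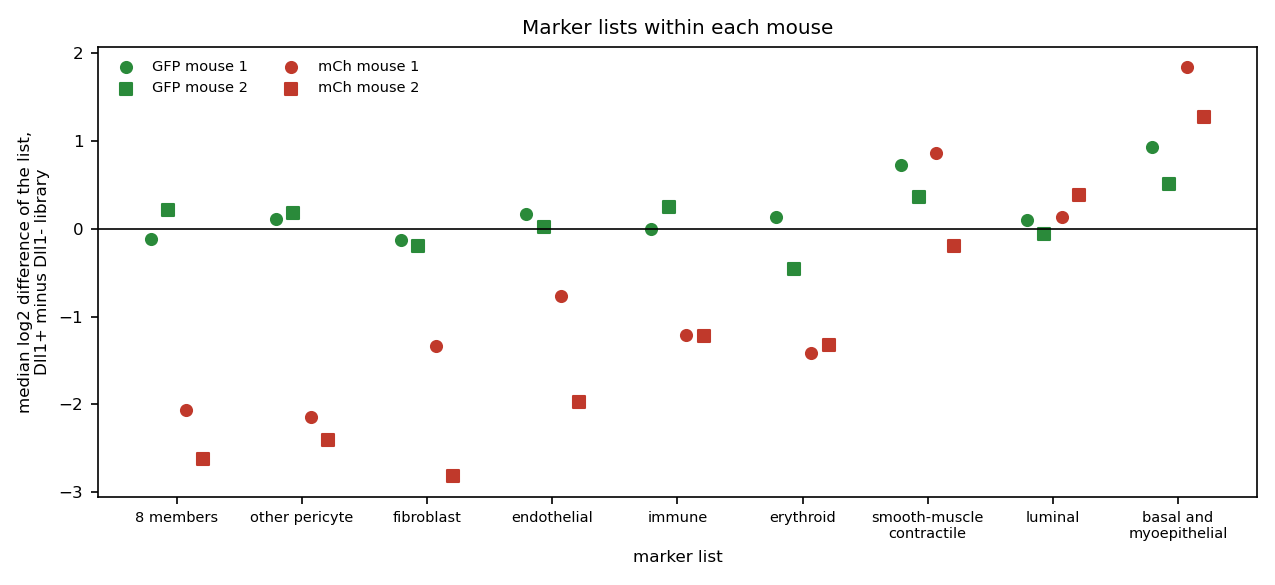
Median change from the Dll1- to the Dll1+ library of each mouse, on the log2 scale, over the genes of each marker list (green, GFP mice; red, mCh mice; circle, mouse 1; square, mouse 2). In mCh mice the medians of the pericyte, fibroblast, endothelial, immune and erythroid lists lie between -0.77 and -2.82, the basal and myoepithelial list lies above 0 in every mouse, and all GFP medians of the stromal and blood lists lie between -0.46 and 0.25.

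Lists for 3 further cell types held few tested genes, and their calls in mCh mice stand beside 11.8% of all tested genes called in either direction. In mCh mice 1 of 7 Schwann cell genes fell and 1 rose, 0 of 4 skeletal muscle genes passed (edgeR; 1 at an unadjusted p under 0.05 and 0 with DESeq2), and Fabp4, the only adipocyte gene that passed the filter and a gene of capillary endothelium too, fell by 1.65 ± 0.21 on the log2 scale (adjusted p = 0.0153). Sox10, the most abundant gene of the Schwann list at 334 to 527 CPM, is also made by mammary epithelium. The skeletal muscle list was low throughout, with Acta1 between 0.464 and 4.16 CPM.

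Across the 8 libraries the levels of the 8 genes were correlated. Rgs5, Abcc9 and Kcnj8 were chosen for a shared pattern, so the correlations that involve them are in part fixed by that choice. Within GFP mice the genes did not move together. In Dll1+ cells Abcc9 (0.41 and 0.65) and Kcnj8 (0.63 and 0.63) were higher in both mice on the log2 scale. Pdgfrb (-0.30 and -0.09) and Cspg4 (-0.13 and -0.55) were lower in both, and Rgs5, Des, Higd1b and Mcam differed in sign between the mice. Pairwise Pearson correlations of log2 CPM ranged from 0.68 to 0.99 over 28 pairs, and from 0.86 to 0.99 over the 21 pairs without Mcam. These values describe 8 libraries that form 4 groups and share mice, and the mCh Dll1- libraries carry most of the range. The mean profile of Rgs5, Abcc9 and Kcnj8 correlated at 0.9713 with Pdgfrb, 0.9622 with Higd1b, 0.9392 with Cspg4, 0.937 with Des and 0.8196 with Mcam.

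Among 14340 other genes that averaged 1 CPM or more, the 10 with the highest correlation to this mean profile were Ifitm1 (r = 0.9933), Trarg1 (0.993), Gja4 (0.9899), Ifi203 (0.9886), Gjc1 (0.9865), Arhgap30 (0.9861), Fcgr2b (0.9848), Lilr4b (0.9823), Naaa (0.982) and Daam2 (0.981). Gja4 and Gjc1 encode gap junction proteins of vessel walls, and Fcgr2b and Lilr4b receptors of leukocytes. Trarg1 was at 3.92 and 5.42 CPM in mCh Dll1-, 0.473 and 0.45 CPM in mCh Dll1+ and 0.136 to 0.209 CPM in GFP libraries. Gjc1 was at 8.51 and 11 CPM, 1.39 and 1.64 CPM, and 0.381 to 0.697 CPM in the same order. Fcgr2b, at 25.9 and 26.8 CPM, 11.9 and 9.79 CPM, and 5.68 to 6.96 CPM, had a smaller range with the same order of groups.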

How the data were processed

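RNA of 8 libraries from 4 mice was sequenced with a stranded kit, and the authors deposited estimated counts per gene, made with salmon against GENCODE M20 transcripts (GRCm38.p6) and summed to genes with tximport; the salmon version is not given in the sources used here. The table held whole numbers, not normalized, for 53697 genes, and 52806 matched a symbol. Genes were fitted with edgeR 4.0.16 in R 4.3.3 (filterByExpr, TMM, robust quasi-likelihood F test, Benjamini-Hochberg adjustment over 18322 genes, threshold 0.05). The Dll1+ effect of each reporter was fitted with the mouse as a block, as the mouse number in the labels pairs the libraries (correlation of paired deviations -0.05 in GFP and 0.55 in mCh mice). The lines were compared in a fit of the 4 group means without a block, as each mouse carries 1 reporter. That fit takes the Dll1+ and Dll1- libraries of a mouse as independent when it estimates the spread. Its p-values between the lines rest on 2 mice against 2. Standard errors are the log2 difference over the root of F. CPM use TMM library sizes, with a prior count of 2 on the log2 scale.

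The members and all lists were chosen with earlier results of these data known. Some genes, such as Rgs4, stand in several lists, so the counts of different lists are not separate. Genes named are the 8 members, Dll1, called genes and up to 5 uncalled genes of the related lists, up to 4 abundant genes per marker list, Ptprc and the neighbours of Kcnj8 and Abcc9 (added after the values were seen) and the 10 genes most like the mean of Rgs5, Abcc9 and Kcnj8. A few listed genes are not analysed here. Alternatives were RLE factors, DESeq2 1.42.0, other filters on low counts, no block, separate fits, each mouse left out and, chosen after seeing the data, library totals without TMM. Scripts were tested on simulated counts. Nothing says that the 2 mice of a line came from separate litters, and intervals and floors reflect only counting error, as PCR copies are not independent molecules.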

Additional observations from a re-analysis of the deposited data

Results flagged for a closer look

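Abcc9 and Kcnj8 moved in opposite directions in the reporter lines, higher in the Dll1+ library of both GFP mice and lower in that of both mCh mice. The log2 difference between Dll1+ and Dll1- cells was smaller in mCh than in GFP mice by -2.76 ± 0.22 (SE) for Abcc9 and by -2.41 ± 0.21 for Kcnj8. This difference was not tested, because these genes were chosen for it.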

How the results depend on the processing

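In mCh mice the log2 differences of the 8 genes kept their sign under each alternative that gave a value, with calls lost only where the report gives them. Higd1b did not pass the filter, and has no value, when every library must hold 10 counts or with mCh mouse 1 or mCh mouse 2 left out. Genes called over the whole table moved more. For Dll1+ against Dll1- cells over all mice, 2568 genes were called, 4362 with DESeq2, 1207 without the replicate block and 405 to 2401 with a mouse left out. For mCh mice 2154 were called, 3637 without the filter on low counts, 212 without the block, 0 with the reporter fitted alone and 905 to 1315 with a mouse left out. For GFP mice 1673 were called, 3001 without the filter, 274 without the block and 2 to 2355 with a mouse left out. The difference between the lines called 13 genes, 540 with DESeq2, 1143 without the filter, 44 with at least 10 counts in every library, 0 without the block and 0 to 717 with a mouse left out. Between the lines, 6701 genes in Dll1- and 5612 in Dll1+ cells were called, and 0 to 7828 and 0 to 6897 with a mouse left out. The cause of these shifts was not tested. Signs reversed for small differences with a mouse left out. In GFP mice they were -0.11 to 0.43 for Rgs5 and -1.09 to 0.79 for Des (reversed without GFP mouse 2), and -0.54 to 0.36 for Higd1b and -0.51 to 0.20 for Mcam (reversed without GFP mouse 1). Between the lines in Dll1+ cells Mcam ran from -0.20 (without mCh mouse 1), through -0.07 (without GFP mouse 1), to 0.29. Another scaling moved the median of all genes in mCh mice from 0.02 to 0.01 or -0.02. With 2 mice per line and 2 to 18 counts of Higd1b and Des per GFP library, differences within GFP mice were not resolved for these genes.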
